A study of Sus scrofa with 4 samples.

Results

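The clustered miR-23, miR-27 and miR-24 genes were followed in 4 small RNA libraries of primary pig vascular stem cells. The members were the pig miRNAs entered as mir-23a, mir-27a, mir-23b, mir-27b and mir-24, the last with the copies mir-24-1 and mir-24-2. They are 5 of 189 miRNAs with a read, from 6 of 207 hairpins. They were chosen by name and not by a cut on their counts, though with earlier results of these data known. IVSC were isolated from longissimus dorsi, a back muscle, and SVSC from subcutaneous fat, both grown at passage 1 in medium with 20% serum. The labels give "adipose derived" as the cell type of both. IVSC MDI and SVSC MDI are the same kinds of culture after induction of fat cell formation with MDI. This mix held insulin (5 mg/l), the glucocorticoid dexamethasone (0.25 µM) and IBMX (0.5 mM), which inhibits phosphodiesterases. Dexamethasone and IBMX were withdrawn after 3 days, growth medium returned at day 6, and culture went on for 3 or 4 more days. Each group was 1 library, with no replicate, and the labels do not say which cultures, if any, shared an animal.

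In mammals these miRNAs come from a pair of related loci. At each locus a miR-23, a miR-27 and a miR-24 hairpin lie side by side and are cut from a common precursor transcript. Paralogs of cluster a and cluster b share their seed, the stretch that pairs with target mRNAs, and differ little elsewhere. miR-27a and miR-27b repress PPARγ, the master transcription factor of fat cells, and are known to hold back adipogenesis. miR-23 is known to repress the glutamine-degrading enzyme glutaminase, and miR-24 to repress cell cycle genes. The clusters are also well expressed in endothelium.

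The pig gene table (RefSeq, Sscrofa11.1) matched all 6 hairpins. It places MIR23A, MIR27A and MIR24-1 next to each other on chromosome 2, between MIR181C and ZSWIM4 and within no protein-coding gene. MIR23B, MIR27B and MIR24-2 lie together on chromosome 10 within the span of C10H9orf3, the gene of aminopeptidase O. By these gene names, therefore, miR-24-1 neighbours cluster a in the pig and miR-24-2 neighbours cluster b, the reverse of the human numbering. The hairpins counted here were matched to these genes by name only. In what follows cluster a stands for miR-23a and miR-27a, cluster b for miR-23b and miR-27b, and miR-24 is kept apart. No mature read was unique to miR-24-1 in any library, and those unique to miR-24-2 numbered 112 in IVSC (85 with MDI) and 153 in SVSC (9 with MDI). The mature miR-24 reads thus cannot be divided between the loci. All mature reads of miR-23a, miR-23b, miR-27a and miR-27b were unique to their hairpin.

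The libraries held 2573249 to 17937121 miRNA reads, SVSC MDI having the fewest. In that library hairpins held 55.0% of all deposited reads, against 70.2% to 77.0% in the others. These shares, and the scaling to all reads used below, rest on deposited counts summed over all entries. A read that matches several entries can count more than once in such a sum. Levels below are CPM, reads on the hairpin scaled to 1000000 miRNA reads of the library, and ranges in parentheses are exact 95% intervals that cover counting error only. miR-143 and miR-145, of smooth muscle and pericytes, summed to 256601 to 397740 CPM. Nearly all of this was miR-143, at 255706 to 390300 CPM, while miR-145 stood at 895 to 7440 CPM. Of 6 skeletal muscle miRNAs 5 had reads, and their sum was 6275 CPM in IVSC (1137 with MDI) and 1853 in SVSC (888 with MDI). Single miRNAs dominated these sums, miR-206 in IVSC at 4874 CPM (140 with MDI) and miR-1 in SVSC at 1818 CPM (661 with MDI). Where 4 values follow each other below, their order is IVSC, the same with MDI, SVSC, the same with MDI. The endothelial miR-126 stood at 134, 89.6, 52.6 and 63.7 CPM. Of 6 blood cell miRNAs 3 had reads, 10.8 to 39.9 CPM in sum. Of 6 epithelial miRNAs 1 had reads, at most 3.50 CPM. The nerve list (2 of 3 with reads) summed to 12.7 to 77.7 CPM, and the liver miRNA miR-122 stood at 1.94 to 24.1 CPM.

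The 5 miRNAs together made up 1.70% of miRNA reads in IVSC (2.03% with MDI) and 1.66% in SVSC (2.89% with MDI). Cluster a carried most of this. miR-23a stood at 7382 CPM in IVSC (8702 with MDI) and 4368 in SVSC (10676 with MDI), and ranked between 7 and 15 among all miRNAs. It was lowest in SVSC and highest in SVSC MDI on this scale. Scaled to all reads, miR-23a was highest in IVSC MDI, and the ratio of SVSC MDI to IVSC MDI was 0.856. miR-27a stood at 5926, 6027, 6420 and 10829 CPM in that order. Its first 3 values lay close together, and SVSC MDI stood above them.

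Cluster b was lower in every library. miR-23b stood at 422 CPM in IVSC (1105 with MDI) and 532 in SVSC (1487 with MDI). Both MDI libraries were above both libraries without MDI. miR-27b stood at 1074, 1894, 2773 and 3830 CPM, and both SVSC libraries were above both IVSC libraries. miR-24, from both loci, stood at 2222, 2542, 2485 and 2035 CPM, the narrowest range of the 5 on this scale. Scaled to all reads, its ratio of SVSC MDI to IVSC MDI was 0.558, and its range was wider than that of miR-27a. The order of the 5 by reads was miR-23a, miR-27a, miR-24, miR-27b and miR-23b in both IVSC libraries. In SVSC it was miR-27a, miR-23a, miR-27b, miR-24 and miR-23b. SVSC MDI had the order of SVSC, with miR-27a (10703 to 10956 CPM) and miR-23a (10551 to 10802 CPM) not distinguishable by counting error.

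**Figure D1:**
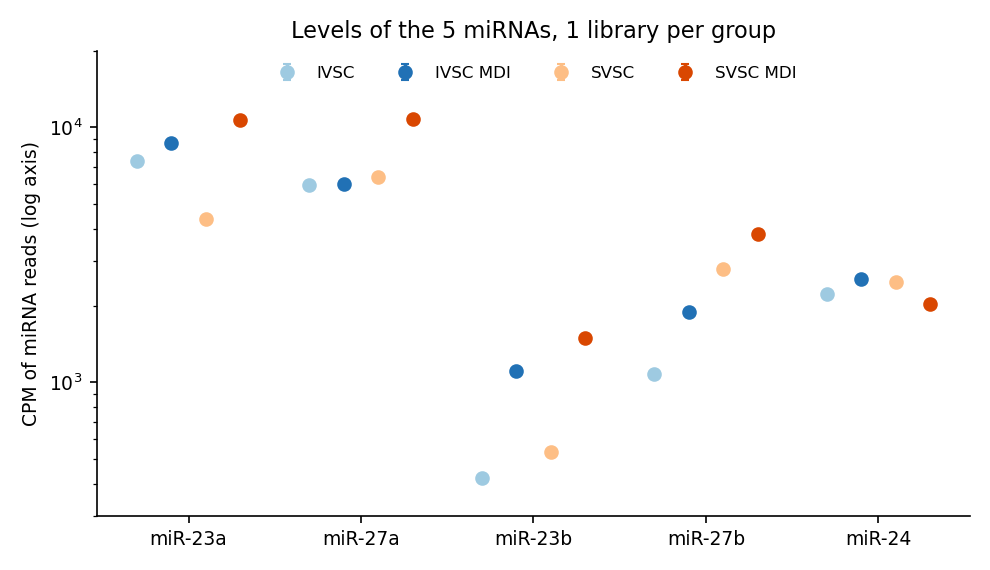
CPM of each miRNA (log axis) in the 4 libraries, 1 point per library, with exact 95% counting intervals that are mostly smaller than the points. miR-23b is higher in both MDI libraries, miR-27b is higher in both SVSC libraries, and miR-24 stays between 2035 and 2542 CPM.

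Which of these miRNAs changed with adipogenic induction in muscle-derived cells was asked first. A miRNA was said to rise or fall when it changed at least 2-fold and the interval of its ratio excluded 1. With 1 library per group such a call has no replicate check and no p-value. In IVSC, miR-23b rose 2.62-fold with MDI (2.54 to 2.70), and no other member was called. Its cluster partner miR-27b, the PPARγ repressor of cluster b, had a ratio of 1.76 (1.73 to 1.80). In cluster a the ratios were smaller, 1.18 (1.17 to 1.19) for miR-23a and 1.02 (1.01 to 1.03) for miR-27a. miR-24 had a ratio of 1.14 (1.13 to 1.16). Thus 1 of 5 members rose and none fell, against 16.4% of 152 miRNAs that rose and 23.7% that fell. The median log2 ratio was 0.24 over the members and -0.04 over all miRNAs tested. miR-23b rose under all 5 scalings tried, by 2.55-fold to 3.04-fold, and scaling to all reads took miR-27b to 2.05-fold. Of 5 skeletal muscle miRNAs 2 fell between the same libraries, miR-206 to a ratio of 0.0287 and miR-133b to 0.239, while miR-1, miR-133a and miR-499 had ratios of 0.710, 1.09 and 1.04. The nerve miR-9 was 2.19-fold higher and the smooth muscle miR-145 5.30-fold, while miR-143 had a ratio of 1.11. The liver miR-122 had a ratio of 0.296, on 139 and 46 reads, and the endothelial miR-126 of 0.668. Blood cell ratios were 0.911 (miR-142), 0.988 (miR-451) and 0.494 (miR-486). The part of these cell types in these ratios was not tested.

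In SVSC, miR-23b rose 2.79-fold (2.69 to 2.90) and miR-23a 2.44-fold (2.41 to 2.48) with MDI. miR-27a had a ratio of 1.69 (1.66 to 1.71) and miR-27b 1.38 (1.35 to 1.41). miR-24 had a ratio of 0.819 (0.795 to 0.842), the only one below 1. So 2 of 5 members rose, against 34.2% of the miRNAs tested that rose (50) and 21.9% that fell (32), and the medians were 0.75 over the members and 0.41 over all. The scaling weighs on this comparison. The other 4 scalings lowered every log2 ratio by 0.40 to 0.50, which brought miR-23a to between 1.72-fold and 1.85-fold. They took the ratio of miR-24 to between 0.577 and 0.621. miR-23b was called under 3 of 5 scalings, at 1.97-fold or more in all 5. Ratios on mature or on exactly matching reads were scaled to the library's total of such reads, so both the reads and the scale differ. Over miRNAs with 100 CPM or more of mature reads, the pooled exact share was 38.3% in SVSC and 62.3% in SVSC MDI. On reads matching the mature miRNA exactly miR-23b had a ratio of 1.54 and was not called, while miR-23a had 2.66. How much of this came with the scale was not tested. The ratio of miR-27b was 0.974 with TMM and 0.987 with all reads. Scaled to the total of mature reads, miR-27a reached 2.11-fold on mature reads alone. These were 95.7% of its reads in SVSC and 97.0% in SVSC MDI. On exactly matching reads, scaled to their own total, it had a ratio of 1.04. miR-24 had a ratio of 0.996 on mature reads and of 0.437 on exactly matching reads, each scaled to their own total. Between these libraries the muscle miRNA miR-133a was 9.18-fold higher and miR-133b 12.2-fold (7.22 to 21.1), the latter on 24 and 42 reads. miR-1 had a ratio of 0.363, miR-206 of 0.558 on 50 and 4 reads, and miR-499 of 1.14. The blood cell miRNA miR-142 was 3.59-fold higher, on 97 and 50 reads, while miR-451 and miR-486 had ratios of 0.909 and 1.37 with intervals that held 1. The nerve miR-9 was 3.49-fold higher and the smooth muscle miR-145 8.31-fold, while miR-143 had a ratio of 1.53. The liver miR-122 had a ratio of 0.0807, on 432 and 5 reads, and the endothelial miR-126 of 1.21. The part of these cell types, and of the low hairpin share of SVSC MDI, in the ratios was not tested.

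The MDI changes of the cultures were compared next. The log2 change of miR-23a was larger in SVSC than in IVSC by 1.05 (1.03 to 1.08), and that of miR-27a by 0.73 (0.71 to 0.75). For miR-23b the difference was 0.09 (0.02 to 0.16). For miR-27b it was -0.35 (-0.39 to -0.31) and for miR-24 -0.48 (-0.53 to -0.44), both lower in SVSC. Only miR-23a of the 5 passed a 2-fold difference, as 46.5% of 155 miRNAs did. These differences take in the scaling of both pairs of libraries, and each of the other 4 scalings lowers all 5 by the same amount, which takes miR-23a below 2-fold and miR-23b below 0. What does not move is their order, with miR-23a furthest towards SVSC and miR-24 furthest towards IVSC.

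Before induction, miR-27b was 2.58-fold higher in SVSC than in IVSC (2.53 to 2.63), under all 5 scalings between 2.58-fold and 3.33-fold. miR-23b had a ratio of 1.26 (1.22 to 1.30), miR-24 of 1.12 (1.10 to 1.14) and miR-27a of 1.08 (1.07 to 1.09). miR-23a was 1.69-fold lower in SVSC (1.67 to 1.71), short of a call. Hence 1 of 5 members was called higher and none lower, against 7.43% (11) and 20.9% (31) of the miRNAs tested. On mature reads, scaled to their own total, miR-23a had a ratio of 0.499 and was called lower. Of 5 skeletal muscle miRNAs 3 were called lower in SVSC, miR-206 (ratio 0.000572), miR-133b (0.0194) and miR-133a (0.277). miR-499 had a ratio of 0.721 and miR-1 of 1.46. The endothelial miR-126 was lower in SVSC at a ratio of 0.392 (0.362 to 0.425). Blood cell ratios were 0.191 (miR-142), 0.395 (miR-451) and 0.562 (miR-486), and the liver miRNA miR-122 was 2.30-fold higher. The nerve miR-9 had a ratio of 1.75, and the smooth muscle miR-143 and miR-145 of 0.731 and 0.846. The part of these cell types in the ratios of the members was not tested.

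After induction, miR-27b was 2.02-fold higher in SVSC MDI than in IVSC MDI (1.98 to 2.07), and this call was lost under each of the other 4 scalings (1.41-fold to 1.97-fold). miR-27a had a ratio of 1.80 (1.77 to 1.82), miR-23b of 1.35 (1.30 to 1.39) and miR-23a of 1.23 (1.21 to 1.24). miR-24 had a ratio of 0.800 (0.777 to 0.824). So 1 of 5 members was called higher and none lower, against 17.7% and 10.2% of 147 miRNAs. Of 5 skeletal muscle miRNAs 1 was called higher in SVSC MDI (miR-133a, 2.32) and 1 lower (miR-206, 0.0111, on 4 and 2068 reads). The ratios of miR-1, miR-133b and miR-499 were 0.749, 0.991 and 0.789, and the nerve miR-9 was 2.79-fold higher. The ratios of miR-126, miR-142, miR-143 and miR-145 were 0.711, 0.751, 1.01 and 1.33. Those of miR-122, miR-451 and miR-486 were 0.626, 0.364 and 1.56, with 5, 6 and 10 reads in SVSC MDI. The part of these cell types in the ratios of the members was not tested.

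**Figure D2:**
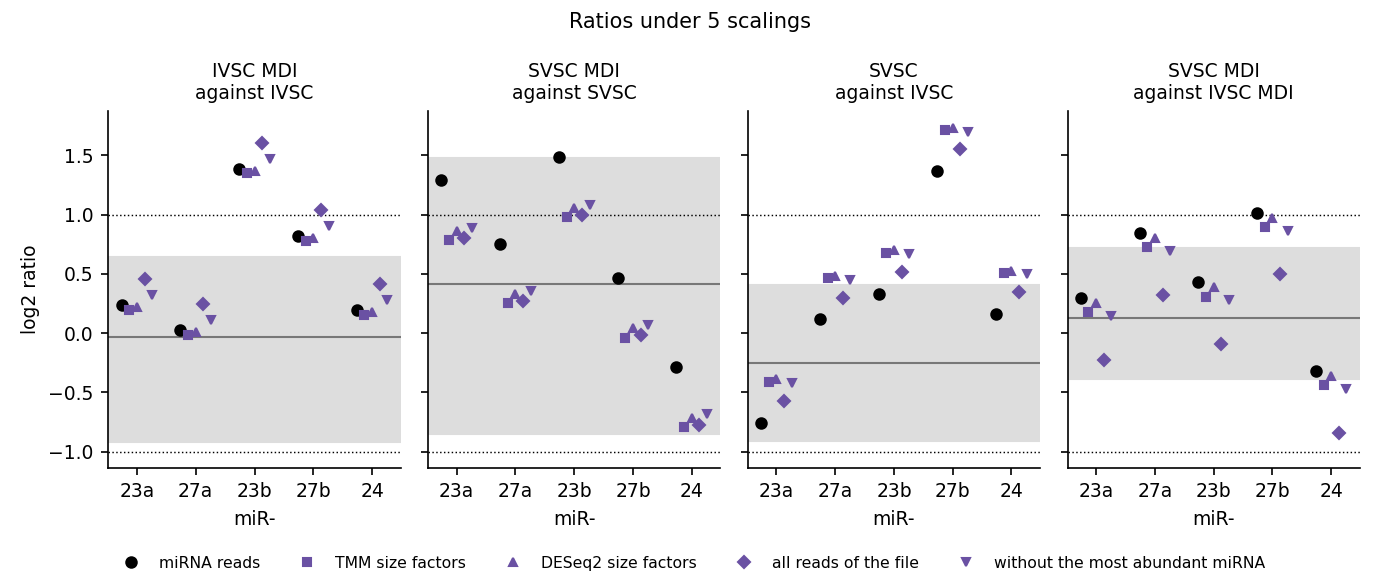
log2 ratios of the 5 miRNAs in the 4 comparisons under 5 scalings (black circles, miRNA reads). The grey band and line are the middle 50% and the median of all miRNAs tested under scaling to miRNA reads, and dotted lines mark 2-fold. miR-23b in IVSC and miR-27b before induction pass 2-fold under all 5 scalings.

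Effects shared by both cultures or both states were tested on all 4 libraries with edgeR's quasi-likelihood test on an additive model of culture and MDI, with Benjamini-Hochberg adjustment at 0.05. No member passed for either effect. For MDI, miR-23b had a log2 ratio of 1.27 (SE 0.56) and an edgeR adjusted p of 0.129. For origin, miR-27b had a log2 ratio of 1.35 (SE 0.56) and an edgeR adjusted p of 0.213. The other members had edgeR adjusted p from 0.593 to 0.917 for MDI and from 0.879 to 0.996 for origin. miR-23b and miR-27b were also the only members with an unadjusted p under 0.05, 1 for each effect, and DESeq2 likewise called none. Over all 179 miRNAs tested, 10.6% were called for MDI and 2.79% for origin.

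A ratio of miRNAs within a library does not depend on how libraries are scaled. Reads of different miRNAs are ligated and amplified with unlike efficiency, so such a ratio compares reads and not molecules, and its change between libraries is the measure of interest. miR-23a had 17.5 times as many reads as miR-23b in IVSC (17.01 to 17.96) and 7.87 times with MDI (7.75 to 8.003). In SVSC the ratio was 8.21 (8.03 to 8.38), and 7.18 with MDI (6.94 to 7.43). On these reads IVSC stood apart and the other 3 libraries lay close together. On exactly matching reads they did not, the ratios being 31.0, 18.1, 15.4 and 26.6. miR-27a had 5.52 times as many reads as miR-27b in IVSC (5.42 to 5.62) and 3.18 times with MDI (3.14 to 3.23). In SVSC the ratio was 2.32 (2.29 to 2.34), and 2.83 with MDI (2.76 to 2.89). Here too IVSC was highest.

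With MDI in IVSC the share of cluster b therefore grew in both families. The a to b ratio fell 2.22-fold (2.15 to 2.29) for miR-23 and was 1.73-fold lower (1.69 to 1.77) for miR-27. Cluster b made up 10.1% of the summed reads of miR-23a, miR-27a, miR-23b and miR-27b in IVSC and 16.9% in IVSC MDI. In SVSC the ratios moved less and in opposite directions. That of miR-23 had a change of 0.875 (0.841 to 0.911) and that of miR-27 of 1.22 (1.19 to 1.25). Cluster b went from 23.5% to 19.8% of the summed reads. Without MDI the a to b ratio was 2.13-fold lower in SVSC than in IVSC (2.06 to 2.20) for miR-23 and 2.38-fold lower (2.33 to 2.43) for miR-27. After MDI the cultures differed by 1.10-fold (1.06 to 1.14) and 1.13-fold (1.10 to 1.16), the ratio being lower in SVSC MDI. On exactly matching mature reads the miR-23 ratio was 1.71-fold lower with MDI in IVSC, and its change in SVSC turned to 1.73. It was then 1.47-fold higher in SVSC MDI than in IVSC MDI (1.35 to 1.61).

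miR-23 and miR-27 of 1 cluster come from a common transcript, and their ratio was followed as well. miR-27a had 0.803 reads per read of miR-23a in IVSC (0.693 with MDI) and 1.47 in SVSC (1.01 with MDI). miR-27b had 2.54, 1.71, 5.21 and 2.58 reads per read of miR-23b. In both clusters and both cultures the ratio was lower with MDI, and in both clusters it was higher in SVSC than in IVSC at the same state. The ratio with MDI was lower by 1.16-fold (1.14 to 1.17) for cluster a and 1.48-fold (1.43 to 1.54) for cluster b in IVSC, and 1.45-fold (1.42 to 1.48) and 2.02-fold (1.94 to 2.11) in SVSC. Without MDI the ratio was 1.83-fold higher in SVSC for cluster a (1.81 to 1.85) and 2.05-fold higher for cluster b (1.97 to 2.13). On exactly matching reads the ratio of cluster a fell 2.56-fold in SVSC.

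miR-24 had 0.150 reads per read of the other 4 members in IVSC (0.143 with MDI) and 0.176 in SVSC (0.0759 with MDI). SVSC MDI stood apart from the other 3. The ratio fell 2.32-fold with MDI in SVSC (2.26 to 2.40) and was 1.05-fold lower in IVSC (1.03 to 1.06).

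**Figure D3:**
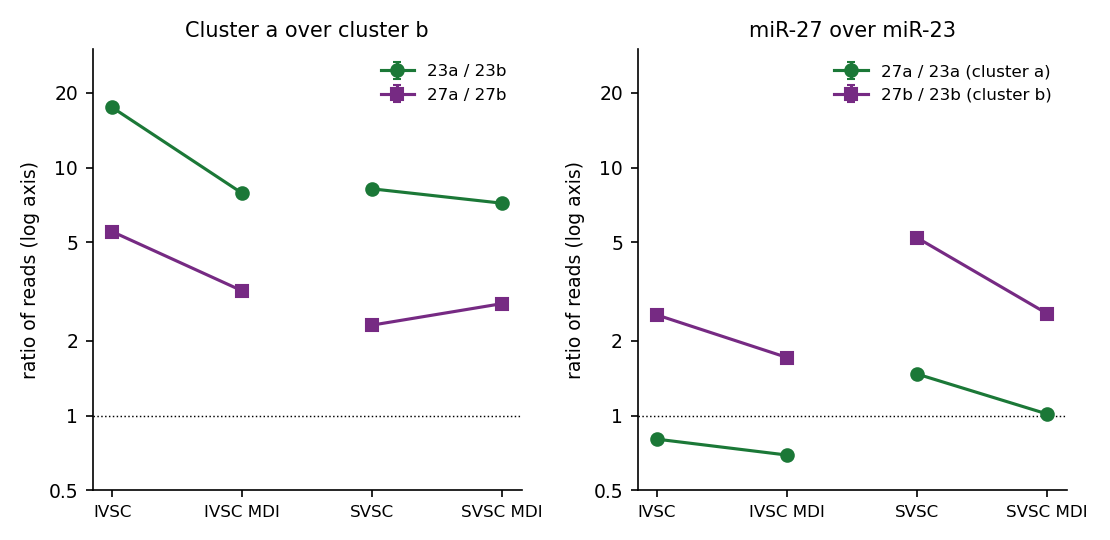
Ratios of reads within each library (log axes), with exact 95% counting intervals that are mostly smaller than the points; lines join a culture without and with MDI. The cluster a to cluster b ratios are lower with MDI in IVSC, and the miR-27 to miR-23 ratio is lower with MDI in both clusters and both cultures.

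Other lettered paralog pairs gave a measure of how far such ratios move. Of 17 listed pairs 14 had reads of both miRNAs in every library. In IVSC the first to second ratio changed at least 2-fold in 21.4% of the 14, and in SVSC in 57.1%. The median absolute log2 change was 0.65 in IVSC and 1.05 in SVSC. The changes of the miR-23 and miR-27 pairs, -1.15 and -0.79 in IVSC and -0.19 and 0.29 in SVSC, were thus above that median in IVSC and below it in SVSC. The largest changes were those of miR-148a to miR-148b (11.9-fold up in SVSC), miR-10a to miR-10b (10.3-fold down in SVSC), miR-34a to miR-34c (8.46-fold up in SVSC) and miR-146a to miR-146b (5.16-fold down in IVSC).

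**Figure D4:**
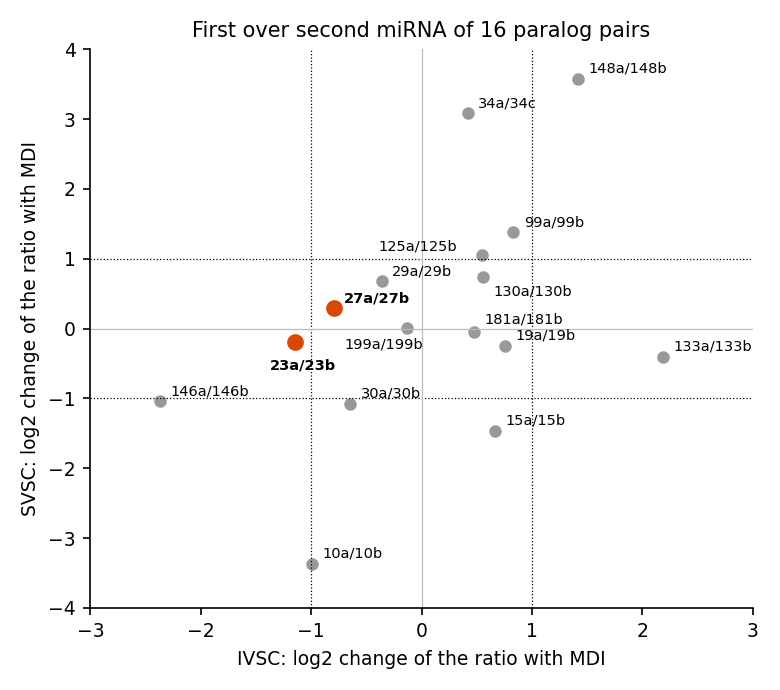
log2 change with MDI of the ratio of the first to the second miRNA of 16 paralog pairs, in IVSC (x axis) and SVSC (y axis); orange points are the miR-23 and miR-27 pairs and dotted lines mark 2-fold. The orange points lie at -1.15 and -0.79 in IVSC and near 0 in SVSC.

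The files also give how many mature reads match the annotated miRNA exactly, the rest being variants in length or sequence. The exact share of miR-27a was 85.3% in IVSC (84.1% with MDI) and 94.7% in SVSC (75.5% with MDI). That of miR-27b was 78.8%, 76.2%, 82.1% and 73.4%. The miR-23 paralogs were less exact. miR-23a had 46.8%, 52.7%, 43.3% and 61.1%, and miR-23b 26.3%, 22.8%, 22.4% and 16.8%. On the miR-24-1 hairpin the share was 50.9%, 51.9%, 62.6% and 44.7%. The miR-23 paralogs stood apart from each other in every library.

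With MDI the exact share of miR-23a grew in both cultures, by 5.81 percentage points in IVSC and 17.8 in SVSC, while that of miR-23b, miR-27a and miR-27b shrank in both. In SVSC miR-27a lost 19.1 points, miR-24 18.0, miR-27b 8.70 and miR-23b 5.60. Over all miRNAs with 100 CPM or more of mature reads in both libraries of a culture, the median absolute change was 4.11 points in IVSC (78 miRNAs) and 5.95 in SVSC (72 miRNAs). There the share grew for 32 and shrank for 46 miRNAs in IVSC, and grew for 32 and shrank for 40 in SVSC. miR-23a and miR-23b thus moved in opposite directions. On exact reads alone, scaled to their own total, miR-24 had a ratio of 0.437 with MDI in SVSC.

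**Figure D5:**
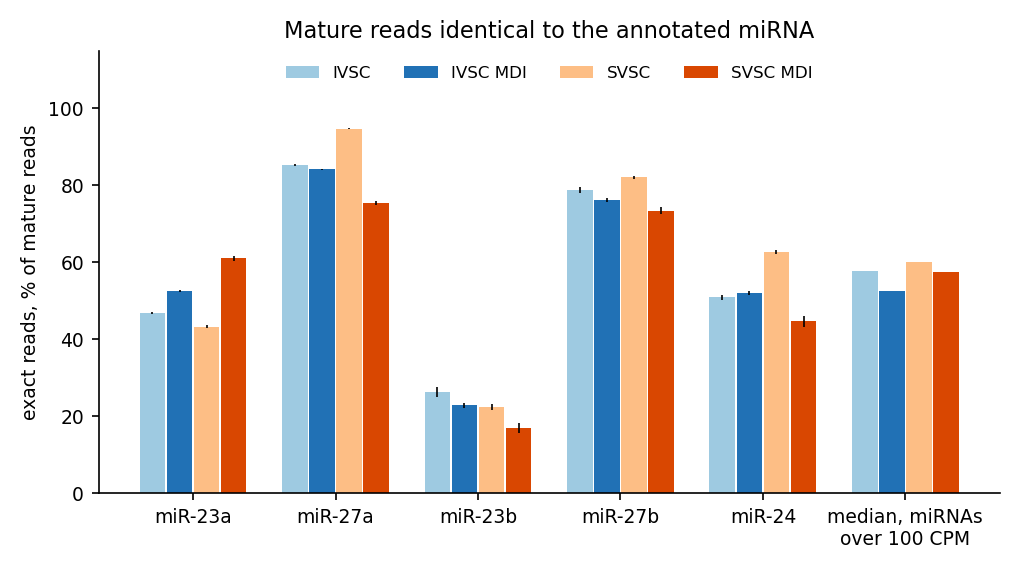
Share of mature reads identical to the annotated mature miRNA (percent) in the 4 libraries; miR-24 is read on the miR-24-1 hairpin, black lines are exact 95% binomial intervals, and the last group is the median of miRNAs with at least 100 CPM of mature reads. miR-27a and miR-24 have their highest share in SVSC and their lowest in SVSC MDI, and miR-23a the reverse.

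Star reads, from the opposite arm of the hairpin, were listed for miR-27b and miR-24-1 only, and the column was 0 for the other 4 hairpins. Of miR-27b reads, 0.927% lay on the star strand in IVSC (0.776% to 1.10%) and 0.642% with MDI (0.552% to 0.742%). In SVSC the share was 1.92% (1.81% to 2.05%), and 0.690% with MDI (0.536% to 0.874%). The 957 star reads of SVSC set it apart from the other 3 libraries, which had 132, 180 and 68. The star strand of miR-24-1, whose reads were all unique to that hairpin, took 3.12%, 2.31%, 2.41% and 2.89% of that hairpin's reads, on 914, 867, 1070 and 151 reads. Reads elsewhere on the hairpin made up 1.03% to 6.14% of the 23 and 27 hairpins. The lowest was miR-27b in SVSC and the highest miR-23b in SVSC MDI, and medians over all miRNAs with 100 CPM or more of mature reads were 2.51% to 3.89%. Of the 23 and 27 hairpins only miR-27b had star reads listed apart. Where opposite-arm reads of the others were counted is not stated, so its share may not compare with theirs.

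The miRNAs with the most similar course over the 4 libraries were taken by distance, over the libraries, of log2 CPM set to a mean of 0. This was done among 82 miRNAs at 100 CPM or more in each library. For miR-23a they were miR-199a (0.24), miR-199b (0.24) and miR-92a (0.38), against a median distance of 1.27. For miR-27a they were miR-424 (0.26), miR-16 (0.31) and miR-1307 (0.43). For miR-23b they were miR-425 (0.27), miR-191 (0.41) and miR-181a (0.48), and for miR-27b let-7c (0.59), miR-99b (0.61) and let-7e (0.69). For miR-24 they were miR-30e (0.13), miR-155 (0.28) and let-7g (0.32). No member was among the nearest 3 of another member.

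Other miRNAs reported to repress adipogenesis were read from a list, of which 7 of 9 had reads. With MDI in IVSC 1 of 7 rose and 3 fell, against 16.4% and 23.7% of all miRNAs tested. In SVSC again 1 rose and 3 fell, against 34.2% and 21.9%. The median log2 ratio of the list was -0.35 in IVSC and -0.99 in SVSC, against -0.04 and 0.41 over all miRNAs tested. The PPARγ repressor miR-130b stood at 866 CPM in IVSC (274 with MDI) and 728 in SVSC (194 with MDI). It fell 3.15-fold in IVSC (3.04 to 3.27) and 3.75-fold in SVSC (3.43 to 4.11), while miR-27a and miR-27b, which act on the same mRNA, had ratios from 1.02 to 1.76. The related miR-130a stood at 433, 203, 389 and 173 CPM and fell 2.14-fold and 2.25-fold. miR-145, abundant in smooth muscle, was the 1 that rose, by 5.30-fold and 8.31-fold. miR-221 also fell in IVSC, to a ratio of 0.224, and let-7a in SVSC, to 0.456. The miR-181 hairpins beside cluster a on chromosome 2 were low. miR-181c stood at 15.2, 5.74, 8.59 and 6.61 CPM and miR-181d at 10.2, 7.97, 15.7 and 4.66 CPM. miR-181c fell in IVSC (201 and 85 reads) and miR-181d in SVSC (282 and 12 reads), where cluster a had ratios above 1. This pair was chosen for its place in the gene table.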

How the data were processed

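Per the file headers, the authors deposited counts of reads per feature for each of the 4 libraries, over pig hairpins, Rfam, piRNAs and the non-coding RNAs of build Sscrofa9.61. In the SVSC file, 1 deposited column (unique mature, another unit) holds 1 value outside the hairpins that is not whole, and only its hairpin entries were used. Aligner, allowed mismatches and trimming are not stated there, and mm9 stands in the submitters' processing notes with no role. Libraries were made from 10 µg of RNA, per the labels' protocols, and no molecular identifier is named, so intervals cover counting error only.

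The measure was the total reads on a hairpin, with copies counted once (the largest copy plus reads unique to the others), scaled to CPM. Runs on mature reads, on exact reads or with copies summed were scaled to the library's total on that count. Ratios used exact Clopper-Pearson intervals, and changes of ratios exact conditional intervals (SciPy 1.17.1, pandas 2.3.3, Python 3.11.15). miRNAs at 10 CPM or more in 1 of both libraries were compared. Differences of MDI changes used normal intervals of log2 counts. A count of 0 was set to 3 reads (0.167 to 1.17 CPM). The additive fit used edgeR 4.0.16 with filterByExpr and TMM, and left 1 residual degree of freedom with an infinite prior, so its spread comes from all miRNAs together and not from animals. DESeq2 1.42.0 was the other tool. Scripts were tested on simulated data. All members were named, and the 3 most similar miRNAs of each were found by distance (pseudocount of 1 CPM). Members and lists were chosen with earlier results of these data known. No sequence is printed.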

Additional observations from a re-analysis of the deposited data

Results flagged for a closer look

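The MDI change of miR-24 had opposite signs in the cultures, with ratios of 1.14 in IVSC and 0.819 in SVSC, a log2 difference of -0.48 (SVSC minus IVSC). On mature reads, scaled to their own total, the SVSC ratio of miR-24 was 0.996. The ratio of miR-27a to miR-27b likewise was lower with MDI in IVSC and higher with MDI in SVSC, a log2 difference of 1.08. With 1 library per group neither difference was tested against replicates.

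Reads of the same families also sat in Rfam entries of other species, which the comparisons above leave out. With entries counted once, the miR-27 family held 3068 such reads in IVSC (3962 with MDI) and 2456 in SVSC (1250 with MDI). The miR-23 family held 219, 313, 345 and 174, and the miR-24 family 174, 158, 239 and 21. For miR-27 they came to 1.49% of its hairpin reads in SVSC and 3.31% to 3.38% in the other 3 libraries, and which paralog they belong to is not given.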

How the results depend on the processing

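No paired analysis was possible because each group had 1 library and the labels number no replicates. In IVSC the count of members called with MDI went from 1 to 2 with all reads. In SVSC it went from 2 to 0 with TMM and all reads, and to 1 with DESeq2 size factors and without miR-21. On mature reads the SVSC count went to 3, with miR-27a (ratio 2.11) added. Before induction it went from 1 to 2 on mature reads, with miR-23a called lower in SVSC (ratio 0.499). After induction it went from 1 to 0 with TMM, DESeq2 size factors, all reads, without miR-21, on exact reads and with copies summed. On exact reads the SVSC count stayed at 2, but with miR-24 (ratio 0.437) in place of miR-23b (1.54). Counts of members and log2 ratios on mature or exact reads take in the change of scale to the library's total of those reads. The additive fit called 0 members under each alternative run. The SVSC change of the miR-23 a to b ratio was 0.919 on mature reads and reversed to 1.73 on exact reads. Uniquely matching mature reads were the same reads for these miRNAs and so gave no separate check. On exact reads the IVSC change was 0.584 for miR-23, and the SVSC change 1.12 for miR-27. The change of miR-27a to miR-23a in IVSC was 0.850 on mature and 0.746 on exact reads, and in SVSC 0.390 on exact reads. That of miR-27b to miR-23b was 0.745 in IVSC and 0.603 in SVSC on exact reads. These alternatives for the miR-27 to miR-23 ratios were added after the data were seen. Among log2 ratios of single members, miR-27a in IVSC turned to -0.015 with TMM. miR-27b in SVSC turned to -0.038 with TMM, -0.019 with all reads and -0.11 on exact reads. SVSC against IVSC turned to -0.13 for miR-27a and -0.032 for miR-24 on mature reads. SVSC MDI against IVSC MDI turned to -0.22 for miR-23a and -0.092 for miR-23b with all reads, and to -0.39 for miR-23b on exact reads. The causes were not tested. Over all miRNAs the additive fit called 19 for MDI and 5 for origin, DESeq2 36 and 10, and edgeR on mature reads 31 and 6. Adding the Rfam reads kept every family ratio on its side of 1. The depth of SVSC MDI limits miR-23b most, at 3826 reads.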
